A study of Mus musculus with 2 samples.

Results

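The genes described here encode the subunits of the mitochondrial respiratory chain and of the ATP synthase, with the assembly factors that share their names. They were taken from the deposited gene table as protein-coding genes whose symbol begins with Nduf, Uqcr, Cox4 to Cox8, Atp5 or Sdha to Sdhd, with Cyc1 and the mitochondrially encoded symbols that begin with mt-Nd, mt-Co, mt-Cyb or mt-Atp. The rule found 114 of the 55414 listed genes, of which 102 are nuclear and 12 lie on the mitochondrial genome (mtDNA). The rule itself uses names alone. By complex, 52 belong to complex I, 8 to complex II, 9 to complex III, 23 to complex IV and 20 to complex V, and Cox5b-ps and Ndufb11b were left without a complex. The mitochondrial cytochrome b gene is spelled mt-Cytb in the table, outside the rule, and its values stand beside those of the others without being counted.

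RNA sequencing was done on NHOS, a mouse osteosarcoma cell line, once after mock transfection and once after transfection with IL10RB, the gene of the beta chain shared by the receptors of interleukin-10 and related cytokines. Both cultures grew in DMEM with FBS at 10% and Geneticin/G418 at 1 mg/ml, an antibiotic that kills cells without a resistance gene, so the control cells were under the same agent as the transfectant. The labels give neither the species of the IL10RB construct nor whether the transfectant is a clone or a pool. With 1 library per group there is no replicate check, no test and no SD, and every difference below is between 2 libraries.

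Complex I takes electrons from NADH and complex II from succinate, coenzyme Q carries them to complex III, cytochrome c carries them on to complex IV, and complex IV hands them to oxygen. Complexes I, III and IV pump protons across the inner mitochondrial membrane, and complex V, the ATP synthase, makes ATP as the protons flow back. Complexes I, III, IV and V each contain subunits made inside the mitochondrion from mtDNA, while the other subunits and all of complex II are imported from the cytosol. Several nuclear subunits exist as isoforms that differ between tissues, as in heart and skeletal muscle.

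The estimated counts summed to 18766040 in mock and 23898112 in the transfectant. Counts were scaled for depth to CPM, and 1 count was worth 0.0542 CPM (mock) and 0.0411 CPM (transfectant). Il10rb stood at 26.2 CPM (mock) and 67.5 CPM (transfectant), 2.57-fold higher (2.32 to 2.85). Here and below, a range in brackets after a fold is its exact 95% interval, which covers counting error only. Of 11 osteoblast markers, 9 reached 50 counts in at least 1 library, among them the transcription factors Runx2 at 1898 and 3311 counts and Sp7 at 3366 and 4025 counts in mock and transfectant. The 11 summed to 7725 and 7633 CPM, with Col1a2 at 4300 and 4306 CPM and Alpl at 2134 and 1508 CPM. Of the 9, 4 were 2-fold higher in the transfectant, or 44.4%, against 19.7% of all genes with at least 50 counts. In the other direction 0 were lower, against 11.9%. The 4 were Ibsp, 8.86-fold higher, Bglap, 5.64-fold, Bglap2, 5.07-fold, and Spp1, 4.05-fold. Among markers of other cell types, 2 of 8 for leukocytes reached 50 counts (1 higher, 1 lower, with Tyrobp and Itgam at 0 in both libraries). The same held for 0 of 5 for endothelium and 1 of 6 for epithelium (Krt14, at 40.8 and 0.411 CPM). The fibroblast list stood apart, with 5 of 7 at 50 counts or more. All 5 reached 2-fold on the transfectant side, against 19.7% of all such genes. That list summed to 106 CPM (mock) and 325 CPM (transfectant), and its part in the results below was not tested.

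Most of the 114 genes were expressed at high levels and differed little between the libraries, with a small shift towards the transfectant. A log2 fold was taken as that of CPM plus 0.5, transfectant over mock, and a gene was counted as higher or lower at a fold of 2 on that scale, where it had at least 50 counts in a library. Of the 114 genes, 105 passed that minimum, 93 nuclear and all 12 of mtDNA. Of the 9 that did not, 4 had 0 counts in both libraries (Cox8b, Cox8c, Ndufb11b and 1 of 2 entries of Atp5o), and Cox4i2, Cox6b2, Cox7a1, Ndufa4l2 and Cox5b-ps had some. Of the 105, 11 were higher in the transfectant, or 10.5%, against 19.7% of the 11952 genes of the whole table past the minimum. Another 2 were lower, or 1.90%, against 11.9% of the whole table. The log2 fold was above 0 in 86 of the 105, or 81.9%, against 53.1% of the whole table. Their median log2 fold was 0.37, against 0.07 for the whole table, and the middle 50% of their log2 folds spanned 0.54 against 1.33. At a fold of 1.5, 33 members were higher (31.4% against 30.7%) and 5 lower (4.76% against 23.9%). Calls at 2-fold were thus fewer than in the whole table, while more members lay on the transfectant side.

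The comparison was repeated among genes whose mean level reached 50 CPM, since most members were abundant. Of the 87 members at that level, 7 were higher (8.05%) and 0 lower, against 11.4% and 12.5% of 4639 genes, and 76 of the 87 had a log2 fold above 0, or 87.4% against 46.3%. At a fold of 1.5 the shares were 29.9% higher against 21.8%, and 1.15% lower against 26.0%. Among abundant genes too, the members lay more often on the transfectant side. Nuclear members together took a share of all counts of 1.54% (mock) and 1.99% (transfectant), and mtDNA members 0.338% and 0.402%. In bulk RNA, a difference in the make-up of the culture and a difference in RNA per cell cannot be told apart. The shift depended on the length correction described further on: with log2 folds centred among genes of like coding length, the median of the nuclear members was 0.014 and that of the mtDNA members 0.021.

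**Figure D1:**
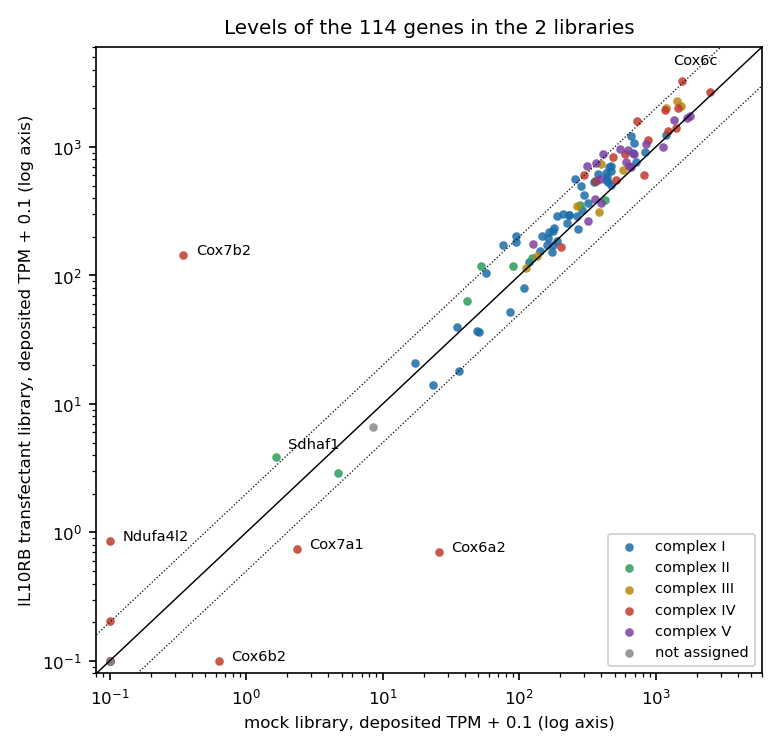
Deposited TPM + 0.1 of the 114 genes in the mock library (horizontal, log axis) and the transfectant library (vertical, log axis), 1 point per gene, coloured by complex. The solid line marks equal levels and the dotted lines a 2-fold difference. Cox7b2 lies far above the line at 0.247 and 144 TPM and Cox6a2 far below it at 25.6 and 0.607 TPM, while most genes lie close to it.

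On the TPM scale, which allows for gene length, the highest members in mock were mt-Co3 at 2488 TPM, Atp5b at 1783, mt-Atp6 at 1696, Cox6c at 1555 and Uqcr10 at 1521. In the transfectant they were Cox6c at 3245 TPM, mt-Co3 at 2656, Uqcrq at 2293, Uqcr10 at 2097 and Cox8a at 2009. Cox6c, a small nuclear subunit of complex IV, thus passed the mtDNA-encoded catalytic subunit 3 of the same complex. The summed TPM of the nuclear subunits, as transfectant over mock, was 1.28 for complex I, 1.10 for complex II, 1.45 for complex III, 1.51 for complex IV and 1.29 for complex V, and 1.04 for the 12 assembly factors. Complexes III and IV were furthest apart between the libraries and the assembly factors the least.

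Complex IV, cytochrome c oxidase, held the largest differences, and both were in tissue isoforms. Cox7b2, a paralogue of Cox7b whose human counterpart is known mainly from testis, had 1 count (mock) and 783 counts (transfectant), or 0.0542 and 32.2 CPM. The ratio was 594 (106 to 23500.2), a range set by the single count in mock. Cox6a2, the heart and skeletal muscle isoform of subunit 6a, had 156 counts (mock) and 5 counts (transfectant), or 8.46 and 0.206 CPM, 41.1-fold lower (17.2 to 128). The 2 isoforms differed in opposite directions, and each had passed the count minimum through 1 library alone. Cox7b2 (ENSMUSG00000049387.11) is listed on the minus strand of chromosome 5 from 71600167 to 71705548 and Cox6a2 (ENSMUSG00000030785.9) on the minus strand of chromosome 7 from 127804607 to 127805559, in coordinates of a build that the sources used here do not name.

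The ubiquitous partners of these isoforms were higher in the transfectant. Cox7b had 126 and 263 CPM, in the order mock and transfectant used from here on, 2.08-fold higher (1.99 to 2.19). Its level per length was 297 and 607 TPM, and that of Cox7b2 was 0.247 and 144 TPM. Cox7b2 therefore made up 0.0832% of the summed TPM of the pair in mock and 19.1% in the transfectant, and the pair together was 2.53-fold higher. Cox6a1, the isoform of subunit 6a found in most tissues, had 283 and 478 CPM, 1.69-fold higher, at 1171 and 1935 TPM. Cox6a2 made up 2.14% of that pair in mock and 0.0314% in the transfectant, so the ubiquitous form was by far the main one in both libraries.

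Start regions are shown for Cox7b2 and for the common forms Cox7b and Cox6a1, because their base make-up differs; that of Cox6a2 was not analysed here. They are RefSeq windows of 300 bases on GRCm38.p6, from 250 before to 50 after the annotated start, written 5′ to 3′ on the gene's strand, with capitals for matches to 4 motifs searched on both strands. The motifs were GCGCANGCG (NRF1-type), CCGGAAGT (ETS-type), AAGATGGC (YY1-type) and TATAAA, the core promoter box.
Cox7b2: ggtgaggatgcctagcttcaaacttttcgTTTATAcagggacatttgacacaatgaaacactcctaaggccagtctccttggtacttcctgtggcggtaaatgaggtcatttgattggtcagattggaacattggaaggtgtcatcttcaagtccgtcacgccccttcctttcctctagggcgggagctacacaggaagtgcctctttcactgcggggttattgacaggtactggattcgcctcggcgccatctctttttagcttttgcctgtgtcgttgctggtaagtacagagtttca
Cox7b: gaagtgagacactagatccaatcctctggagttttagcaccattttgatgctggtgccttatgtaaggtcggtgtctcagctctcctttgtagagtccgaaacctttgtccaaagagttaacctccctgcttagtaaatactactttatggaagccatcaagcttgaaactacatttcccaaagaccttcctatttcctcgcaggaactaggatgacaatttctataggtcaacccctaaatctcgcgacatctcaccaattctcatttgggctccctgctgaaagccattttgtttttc
Cox6a1: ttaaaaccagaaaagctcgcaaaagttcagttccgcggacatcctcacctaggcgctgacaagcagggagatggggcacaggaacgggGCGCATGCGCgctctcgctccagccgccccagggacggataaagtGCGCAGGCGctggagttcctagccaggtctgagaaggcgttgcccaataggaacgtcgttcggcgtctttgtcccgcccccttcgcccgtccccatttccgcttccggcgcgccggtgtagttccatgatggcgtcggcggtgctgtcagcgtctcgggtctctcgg
The Cox7b2 window (chr5:71548156-71548455, minus strand) holds 1 TATA match, on the opposite strand, and has 48.7% G+C. The Cox7b window (chrX:106015450-106015749, plus strand) holds none of the 4 motifs at 43.3% G+C. The Cox6a1 window (chr5:115348909-115349208, minus strand) holds NRF1-type matches in 2 places, counting overlapping matches as 1, at 63.0% G+C. The ratio of CpG observed to that expected from base content was 0.564, 0.368 and 1.08, lowest in Cox7b. A match is a description of letters and shows no bound factor.

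**Figure D2:**
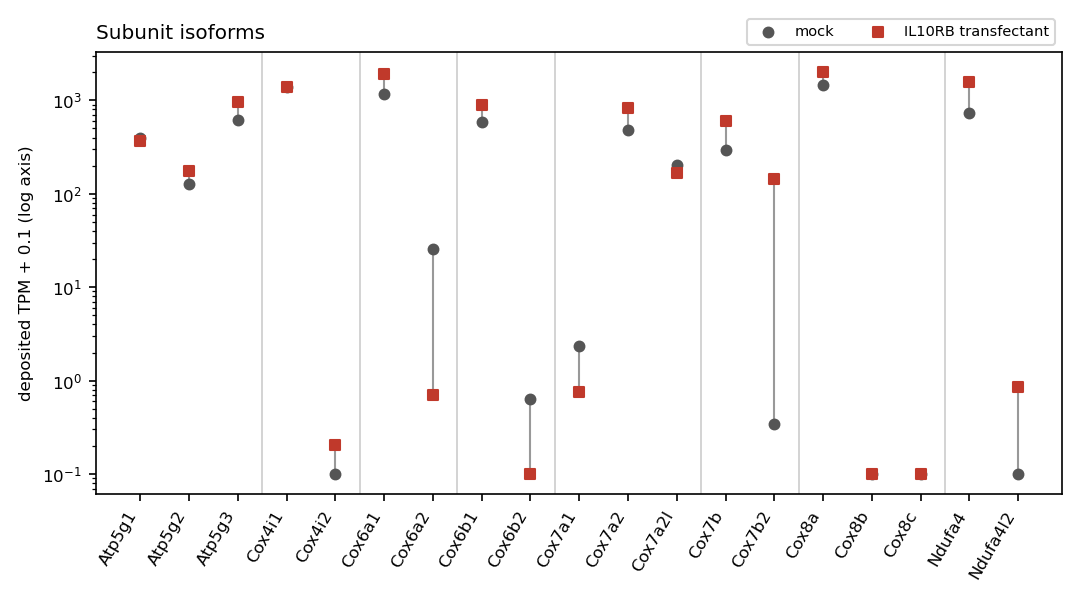
Deposited TPM + 0.1 (log axis) of each subunit isoform in mock (circles) and transfectant (squares), with grey verticals between families. Cox7b2 and Cox6a2 have the longest connecting lines, in opposite directions, while Cox4i1 lies at 1397 and 1395 TPM, and Cox8b and Cox8c are at 0 in both libraries.

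The genes around each isoform on the chromosome, were named for their position after the values were seen, and none differed as much as the isoform itself. On both sides of Cox7b2 lie GABA-A receptor genes. Gabra4, 21.5 kb away, had 7 and 0 counts, Gabrb1 4 and 0, and Gabra2 1 and 0. Commd8, 608 kb away, was the nearest past the minimum on its side, at 77.9 and 75.1 CPM, and Gnpda2 on the other side had 6.45 and 10.7 CPM, higher in the transfectant like Cox7b2. Cox6a2 lies inside the span of Itgad, on the opposite strand, which had 1 and 0 counts. Armc5, 31.0 kb from Cox6a2, had 30.4 and 31.4 CPM, and 9130023H24Rik, 28.1 kb away, had 0.976 and 6.13 CPM, in the opposite direction to Cox6a2.

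Markers of tissues in which such isoforms are known summed to at most 20.9 CPM per list in either library, and their part in the isoform differences was not tested. Of 15 skeletal and cardiac muscle markers, 2 passed the minimum, Acta1 at 50 and 415 counts and Des at 11 and 80 counts, and both were higher in the transfectant. The whole list summed to 6.23 and 20.9 CPM, carried in the transfectant by Acta1, against 8.46 and 0.206 CPM of Cox6a2. Markers with lower counts in the transfectant were Tnnt2 at 31 and 11 counts, Myh7 at 13 and 0, Mb at 4 and 0 and Myh4 at 3 and 0, and 6 of the 15, Myod1 and Myog among them, were at 0 in both libraries. Of 8 brown adipocyte markers, 1 (Prdm16) passed the minimum, and the list summed to 15.1 and 7.24 CPM, with Cidea at 0 in both. None of 10 male germ cell markers passed it, 7 were at 0 in both libraries, and the list summed to 0.921 and 0.329 CPM, against 0.0542 and 32.2 CPM of Cox7b2.

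Among the other isoforms, the form known from most tissues prevailed in both libraries. Cox4i1 had 541 and 553 CPM, a ratio of 1.02, and overlaps Emc8, at 1796 and 4528 counts on the other strand. Cox4i2, the lung form, had 0 and 1 counts. Cox6b1 had 163 and 245 CPM, 1.51-fold higher, and Cox6b2, known from testis, had 2 and 0 counts. Cox8a had 327 and 463 CPM, 1.42-fold higher, and Cox8b, the muscle form, and Cox8c had 0 counts in both libraries, which allows up to 0.163 and 0.123 CPM. Cox7a1, the heart and muscle form of subunit 7a, had 5 and 2 counts, a ratio of 0.304 (0.0289 to 1.85). Ndufa4l2, known as a target of hypoxia signalling, had 0 and 10 counts, at least 2.53-fold higher against the floor of 3 counts, and it overlaps Shmt2 on the other strand, at 8159 and 4137 counts. These low forms fall under the minimum and are not counted in any direction.

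Within the subunit 7a family, Cox7a2 and Cox7a2l differed in direction. Cox7a2, the common form, had 138 and 229 CPM, 1.66-fold higher. Cox7a2l, which joins complexes III and IV in supercomplexes, had 143 and 117 CPM, a ratio of 0.817. By TPM, Cox7a2 made up 70.4% of the family in mock and 83.4% in the transfectant, and Cox7a2l 29.3% and 16.6%.

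Of the 20 nuclear members of complex IV, 14 passed the minimum, with 4 higher (28.6%, against 19.7% of the whole table), 1 lower (7.14%, against 11.9%) and a median log2 fold of 0.60, which was 0.21 under centring by coding length. Besides Cox7b2 and Cox7b, the higher ones were Cox6c and Ndufa4. Cox6c had 315 and 667 CPM, 2.12-fold higher (2.05 to 2.18). Ndufa4, first described with complex I and now counted with complex IV, had 187 and 399 CPM, 2.14-fold higher (2.06 to 2.22). Cox5b, a zinc-binding subunit, went the other way at 199 and 151 CPM, 1.32-fold lower (1.26 to 1.39). The 3 mtDNA-encoded subunits, which form the catalytic core, had a median log2 fold of 0.04, and its sign turned under upper-quartile scaling and under centring by gene or coding length. Cox7b, Cox6c and Ndufa4 fell short of 2-fold under upper-quartile scaling and under centring by gene length or by coding length, with values over all these of 0.66 to 0.97 on the log2 scale.

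**Figure D3:**
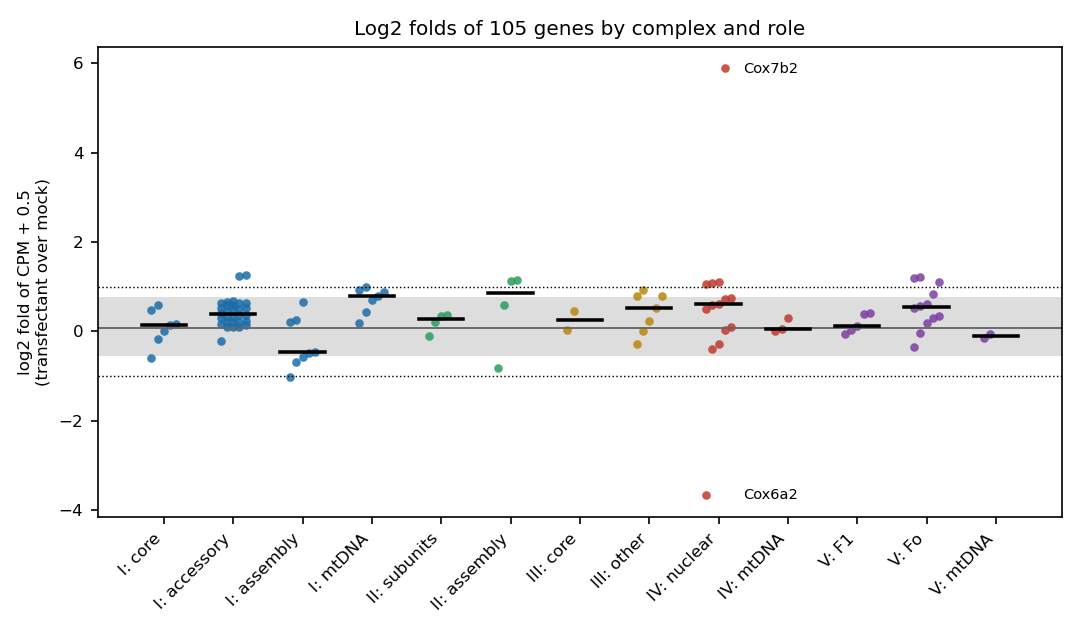
Log2 fold of CPM + 0.5, transfectant over mock, of the 105 genes past the minimum by complex and role, 1 point per gene, with black bars at group medians. The grey band spans the middle 50% of the whole table and the grey line its median, and dotted lines mark 2-fold. Assembly factors of complex I sit lowest with a median of −0.47, and mtDNA subunits of complex I sit at 0.78.

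The mtDNA-encoded subunits of complex I had a higher median than those of complexes IV and V, with some overlap, since mt-Nd2 lay below mt-Co2. All 7 subunits of complex I were higher in the transfectant, with a median log2 fold of 0.78 that ranged from 0.52 to 0.94 over the alternatives tried, though mt-Nd2 turned to −0.03 under centring by coding length. The 5 subunits of complexes IV and V had a median of 0.01, and its sign turned under upper-quartile scaling, under centring by gene or coding length and among genes with whole counts only. Summed over genes, the complex I messages were 1.67-fold higher in CPM and those of complexes IV and V 1.03-fold. None of the 12 reached a log2 fold of 1, although mt-Nd5, at 0.99, was at 1.03 with total-count scaling, 1.09 with deposited TPM and 1.14 under GC centring. All of mtDNA took 0.521% of counts in mock and 0.600% in the transfectant.

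Along the mtDNA map the levels ran as follows. The ribosomal RNAs, which are not members, come first: mt-Rnr1 had 142 and 76.4 CPM, 1.86-fold lower (1.75 to 1.97), and mt-Rnr2 had 1264 and 1024 CPM, a ratio of 0.811. Next in order, mt-Nd1 had 283 and 488 CPM, 1.72-fold higher (1.67 to 1.78), and mt-Nd2 had 68.5 and 77.7 CPM, 1.13-fold higher (1.06 to 1.22). The rRNAs and the neighbouring mt-Nd1 thus lay on opposite sides. The catalytic subunit mt-Co1 had 1193 and 1229 CPM, a ratio of 1.03 (1.01 to 1.05), and mt-Co2 had 237 and 292 CPM, a ratio of 1.23 (1.18 to 1.28). The overlapping ATP synthase genes followed, with mt-Atp8 at 27.5 and 24.6 CPM, a ratio of 0.897 (0.795 to 1.01), and mt-Atp6 at 446 and 430 CPM, a ratio of 0.964 (0.937 to 0.993). Subunit mt-Co3 had 876 and 884 CPM, a ratio of 1.01 (0.989 to 1.03). From mt-Co1 to mt-Co3 the libraries were thus within 1.23-fold of each other.

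Beyond mt-Co3 every message was higher in the transfectant. Subunit mt-Nd3 had 15.1 and 20.5 CPM, 1.35-fold higher (1.17 to 1.57), mt-Nd4l 6.18 and 12.1 CPM, 1.96-fold higher (1.57 to 2.45), and mt-Nd4 172 and 279 CPM, 1.62-fold higher (1.55 to 1.69). The longest of them, mt-Nd5, had 100.1 and 199 CPM, 1.99-fold higher (1.88 to 2.10). Its neighbour mt-Nd6, on the other strand, had 11.5 and 21.7 CPM, 1.88-fold higher (1.60 to 2.22). The cytochrome b message mt-Cytb had 455 and 840 CPM, 1.85-fold higher (1.80 to 1.89), close to the complex I messages around it although it belongs to complex III. mt-Nd4l overlaps mt-Nd4 and mt-Nd6 overlaps mt-Nd5, and the strand of the libraries was not stated, so reads in the overlaps cannot be assigned. Of the 22 transfer RNAs, 0 passed the minimum.

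**Figure D4:**
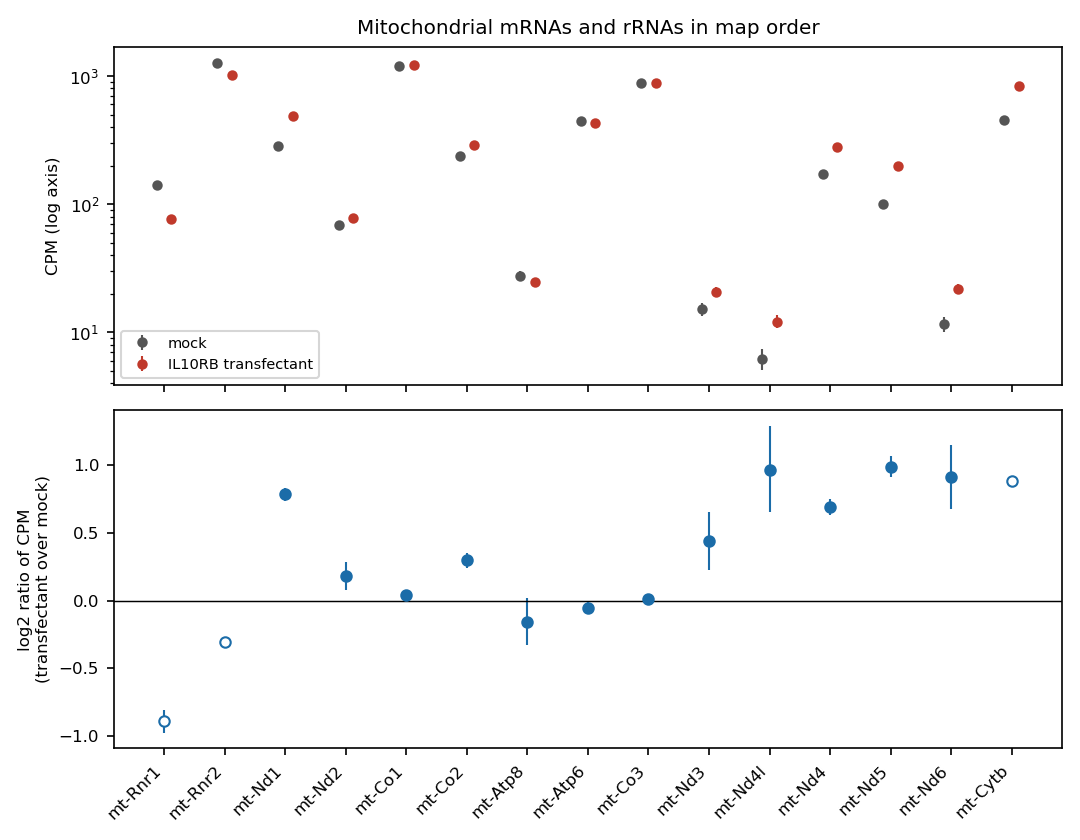
Top, CPM (log axis) of mitochondrial rRNAs and mRNAs in map order in each library; bottom, log2 ratio of CPM, transfectant over mock, with 95% counting intervals as bars, open points for genes outside the name rule. Both rRNAs lie below 0, mt-Co1 to mt-Co3 near 0, and mt-Nd1 and the genes from mt-Nd3 on lie above 0, up to a ratio of 1.99 for mt-Nd5.

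In complex I, the nuclear accessory subunits lay further towards the transfectant than the core, and most assembly factors within the name rule lay towards mock. All 52 members passed the minimum, with 2 higher (3.85%, against 19.7% of the whole table) and 1 lower (1.92%, against 11.9%). The 30 nuclear accessory subunits had a median log2 fold of 0.39, with 29 above 0 and Ndufa9, at 269 and 230 CPM, as the exception. That median was 0.012 under centring by coding length, with 16 of 29 above 0. The highest were Ndufb4, at 28.8 and 69.4 CPM, 2.41-fold higher (2.18 to 2.66), and Ndufa3, at 32.5 and 77.3 CPM, 2.38-fold higher (2.17 to 2.61). Both are small subunits of the membrane arm. The listed processed pseudogene Ndufb4c had 37.6 and 82.4 CPM, and reads of both copies cannot be told apart here, and Ndufa3 overlaps Tfpt, at 295 and 310 counts, on the other strand. Under centring by coding length their log2 folds were 0.86 and 0.85, and Ndufa3 was at 0.99 under GC centring.

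The 7 nuclear core subunits, which bind the flavin, the iron-sulphur clusters and coenzyme Q, had a median log2 fold of 0.14, which turned negative under centring by gene or coding length. Ndufs1, the largest of them, had 217 and 143 CPM, 1.51-fold lower (1.45 to 1.58). Ndufs3 had 111 and 98.5 CPM, a ratio of 0.883, and Ndufv1, the NADH-binding subunit, had 203 and 205 CPM, a ratio of 1.01. Ndufs8 was the furthest towards the transfectant at 196 and 294 CPM, a log2 fold of 0.58. The core thus had members on both sides. Ndufs1 overlaps Eef1b2 on the other strand, at 6531 and 4585 counts, and its part in the value was not tested.

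Of the 8 complex I assembly factors within the name rule, 5 had a log2 fold below 0. Such factors help build the complex and are not in the finished enzyme. The median of the 8, −0.47, was negative under all alternatives run, from −0.77 to −0.38. Ndufaf5, a hydroxylase that acts on the core subunit Ndufs7, had 27.5 and 13.4 CPM, 2.06-fold lower (1.79 to 2.37). It fell short of 2-fold with total-count scaling, a pseudocount of 2, deposited TPM or GC centring, at log2 folds of −0.99 to −0.92. Ndufaf6 had 40.3 and 24.7 CPM, 1.63-fold lower. On the other side, Ndufaf3 had 12.6 and 20.1 CPM, and it overlaps Impdh2, at 3752 and 4266 counts. Complex I factors outside the name rule lay on both sides. Their log2 folds were 0.41 for Timmdc1, 0.34 for Acad9, 0.30 for Ecsit and 0.25 for Foxred1. They were −0.86 for Nubpl, −0.53 for Tmem126a, −0.19 for Tmem186 and −0.04 for Tmem126b.

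Complex II, succinate dehydrogenase, is also an enzyme of the citric acid cycle and is encoded in the nucleus alone. Its 4 subunits differed little, with a median log2 fold of 0.28 that turned negative under centring by coding length. The flavoprotein Sdha had 190 and 247 CPM, a ratio of 1.30, and the iron-sulphur subunit Sdhb had 318 and 297 CPM, a ratio of 0.932. The membrane anchors Sdhc and Sdhd had 127 and 148 CPM and 233 and 295 CPM, ratios of 1.16 and 1.27. The 4 assembly factors were much lower in level and spread more widely. Sdhaf1, which helps insert iron-sulphur clusters into Sdhb, had 53 and 169 counts, or 2.87 and 6.95 CPM, 2.42-fold higher (1.77 to 3.36), and Sdhaf4 had 17.6 and 39.2 CPM, 2.23-fold higher (1.96 to 2.53). Sdhaf3 had 13.2 and 7.28 CPM, 1.81-fold lower (1.48 to 2.21), and Sdhaf2, which helps attach the flavin to Sdha, had 45.9 and 69.2 CPM, 1.51-fold higher. Sdhaf1 and Sdhaf4 had log2 folds of 0.75 and 0.74 under centring by coding length, where Sdhaf3 reached −1.21, and Sdhaf1 was at 0.88 with a pseudocount of 2 and at 0.94 under centring by gene length.

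In complex III the members with the highest ratios were small subunits and those with the lowest were large ones. All 9 members passed the minimum, with none at 2-fold, against 19.7% higher and 11.9% lower in the whole table. Their median log2 fold was 0.46, and it ranged from 0.11 to 0.51 over the alternatives tried. Uqcrh, the hinge protein near cytochrome c1, had 94.8 and 179 CPM, 1.89-fold higher (1.79 to 2.0). Uqcrq had 295 and 513 CPM and Uqcr11 had 178 and 310 CPM, each 1.74-fold higher. The catalytic subunits lay lower, with cytochrome c1 (Cyc1) at 247 and 339 CPM, 1.37-fold higher, and the Rieske protein Uqcrfs1 at 114 and 117 CPM, a ratio of 1.03. The median log2 fold of Cyc1 and Uqcrfs1, 0.25, turned to −0.15 under centring by gene length. The large core proteins Uqcrc2, at 143 CPM in both libraries, and Uqcrc1, at 449 and 370 CPM, had ratios of 1.00 and 0.825 (0.800 to 0.850).

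In complex V the membrane part (Fo, with the stalk) was shifted towards the transfectant more than the catalytic head (F1). The 5 F1 subunits had a median log2 fold of 0.11, which turned negative under upper-quartile scaling and under centring by gene or coding length. The catalytic subunit Atp5b, the most abundant nuclear member in mock by TPM, had 1883 and 1801 CPM, a ratio of 0.956. Of 13 nuclear Fo and stalk members, 12 passed the minimum, with 3 higher (25%, against 19.7% of the whole table), 0 lower and a median of 0.54, which was 0.17 under centring by coding length. Atp5k (subunit e) had 34.3 and 80.2 CPM, 2.34-fold higher (2.14 to 2.56), and Atp5j2 (subunit f) had 129 and 280 CPM, 2.16-fold higher (2.06 to 2.27). Atp5j, the coupling factor 6 of the stalk, had 131 and 300 CPM, 2.30-fold higher (2.19 to 2.41), and it overlaps Gabpa. Atp5pb, the long b subunit of the stalk, was the lowest at 324 and 253 CPM, a ratio of 0.781 (0.754 to 0.809), and overlaps Wdr77. Under centring by coding length the log2 folds of Atp5k, Atp5j and Atp5j2 were 0.82, 0.80 and 0.72, and 2-fold was also missed by Atp5j2 under upper-quartile scaling (0.99) and centring by gene length (0.85) and by Atp5j under GC centring (0.85). The second listed Atp5o entry had 0 counts in both libraries.

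The proton-carrying c subunit is made from 3 genes that yield the same mature protein, and their balance differed. Atp5g3 had 230 and 350 CPM, 1.52-fold higher, Atp5g2 had 48.1 and 69.3 CPM, 1.44-fold higher, and Atp5g1 had 130 and 127 CPM, a ratio of 0.982. By TPM, Atp5g3 made up 54.3% of the 3 in mock and 63.6% in the transfectant, and Atp5g1 34.7% and 24.6%. The sum of the 3 was 1.30-fold higher in the transfectant.

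Across complexes, shorter genes had the larger log2 folds, and the same ran through the whole table. Among nuclear members of up to 100 codons the median log2 fold was 0.64 over 23 genes, with 7 higher (30.4%) and 1 lower, against 0.41 over 210 genes of that length in the whole table, of which 48 were higher (22.9%) and 13 lower. From there to 150 codons it was 0.37 over 27 members, against 0.42, with 4 higher (14.8%, against 25.4%). From there to 300 codons it was 0.26 over 26 members, against 0.27, with 0 higher against 23.5%, and above 300 codons 0.01 over 16 members, against −0.01, with 0 higher against 18.5%. The medians of members above 100 codons thus lay near those of genes of like length, with fewer members past 2-fold. Coding length came from a GRCm38 annotation and was found for 92 of the 93 nuclear members past the minimum. Spearman's rho between coding length and log2 fold, across genes that share both libraries and so are not independent, was −0.54 among members and −0.19 in the whole table. The median member had 143.5 codons and the median gene 465. Under centring by coding length, 1 member stayed 2-fold higher, Cox7b2, at a log2 fold of 5.49, and 3 were 2-fold lower, Cox6a2 at −4.06, Ndufaf5 at −1.23 and Sdhaf3 at −1.21. The part of length in the other differences was not tested.

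**Figure D5:**
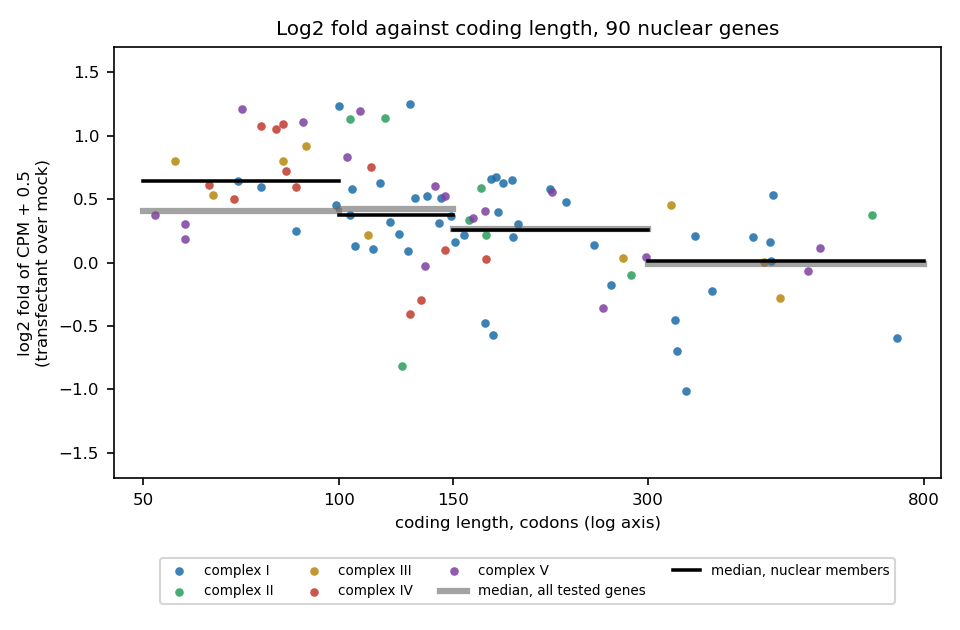
Log2 fold of CPM + 0.5, transfectant over mock, against coding length in codons (log axis) for 90 nuclear genes, coloured by complex, without Cox7b2 and Cox6a2, whose log2 folds of 5.88 and −3.67 lie off the scale. Black lines are medians of members and grey lines medians of the whole table in 4 length classes; members of up to 100 codons have a median of 0.64 and those above 300 codons of 0.01.

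The start regions of the nuclear members, of which 77 of 102 had a window in the RefSeq table and 82 windows in all, were rich in NRF1-type letters. The motif was found in 29.3% of the members' windows, in 13.7% of 11444 windows of other genes past the minimum and in 6.25% of all 32851 windows. The YY1-type motif was found in 12.2%, 4.58% and 2.75%, the ETS-type motif in 4.88%, 8.44% and 3.89%, and the TATA box in 11.0%, 6.80% and 13.6%. NRF1 and YY1 are transcription factors known to act on many genes of oxidative phosphorylation. The median log2 fold was 0.40 over 23 members with the NRF1-type motif and 0.35 over 50 without it, and 0.36 over 10 with the YY1-type motif and 0.37 over 63 without it. It was 0.65 over 4 with the ETS-type motif and 0.37 over 69 without it, and 0.48 over 7 with the TATA box and 0.37 over 66 without it. These differences were not tested, and the last motifs rest on few genes.

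Other genes of the same pathways were read from lists. Of 42 assembly factors outside the name rule, 40 passed the minimum, with 5 higher (12.5%, against 19.7% of the whole table), 1 lower (2.50%, against 11.9%) and a median log2 fold of 0.33. Cox19, a copper-related factor of complex IV, had 16.0 and 46.1 CPM, 2.88-fold higher, Lyrm7, a chaperone of the Rieske protein, had 3.63 and 10.5 CPM, 2.89-fold higher, and Coa3, which stabilises new mt-Co1, had 52.8 and 133 CPM, 2.51-fold higher. The lower one was Fmc1, a factor of ATP synthase assembly, at 58.9 and 28.5 CPM, 2.07-fold lower. Of 13 genes of coenzyme Q synthesis, 3 were higher (23.1%, against 19.7%) and 1 lower (7.69%, against 11.9%), shares near those of the whole table, with a median of 0.47. Coq8a, a kinase-like protein of that pathway, had 4.99 and 17.6 CPM, 3.53-fold higher (2.81 to 4.47), Coq10b had 66.0 and 29.5 CPM, 2.24-fold lower, and Coq10a had 8.67 and 18.2 CPM, 2.10-fold higher. The cytochrome c list held Cycs, Cyct and Hccs, the last a haem lyase and not a cytochrome c. Cycs, with 213 and 181 CPM, a ratio of 0.849, and Hccs, with 40.6 and 25.9 CPM, 1.57-fold lower, passed the minimum. Their median was −0.44 with neither at 2-fold, and Cyct had 0 counts in both libraries.

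Genes that copy, transcribe or regulate mtDNA, and the nuclear regulators of mitochondrial genes, mostly lay on the mock side. Of those past the minimum, 13 of 16 and 7 of 8 were below 0, against 5608 of 11952 in the whole table. Of 16 genes for copying and transcription of mtDNA, 0 were higher and 4 lower (25%, against 11.9% of the whole table), with a median log2 fold of −0.41, negative under all alternatives run. The 3 above 0 were Top1mt, at 13.6 and 22.3 CPM, 1.64-fold higher, Mterf4, at 24.8 and 27.9 CPM, and Slirp, at 72.1 and 76.6 CPM. Lrpprc, which stabilises mitochondrial mRNAs, had 138 and 46.2 CPM, 2.98-fold lower (2.77 to 3.19). Mterf3 had 62.1 and 28.1 CPM, 2.21-fold lower, and the transcription factor Tfb2m had 53.9 and 24.6 CPM, 2.20-fold lower. Of 12 regulators, 8 passed the minimum, with 0 higher, 3 lower (37.5%, against 11.9%) and a median of −0.79, also negative under all alternatives run. The coactivator Ppargc1b had 160 and 20 counts, or 8.67 and 0.823 CPM, 10.5-fold lower (6.60 to 17.7). Gabpb1, a partner of the ETS factor Gabpa, had 75.2 and 28.5 CPM, 2.64-fold lower, and the coactivator Pprc1 had 93.9 and 40.8 CPM, 2.30-fold lower. Ppargc1a, the coactivator best known for mitochondrial biogenesis, had 17 and 0 counts, under the minimum.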

How the data were processed

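RNA was extracted from 1 mock and 1 IL10RB-transfected culture with a column kit and made into libraries by the SMART-Seq v4 method, per the labels' protocols. The submitters' processing notes name DRAGEN. The aligner's settings, the build, the annotation and the strand were not given in the sources. The authors' deposited table holds, per the file headers, an estimated count, a TPM value and a gene length in bases for each gene. The deposited estimated counts carry no normalisation, and 33.6% of genes past the minimum have one that is not whole. The authors scaled the deposited TPM values for length and depth.

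Estimated counts were rounded to whole numbers and scaled with TMM factors of 0.983 and 1.02 (edgeR 4.0.16, R 4.3.3). DESeq2 1.42.0 gave alternative size factors. Neither tool was used for a test, since each group had 1 library, and no p-value was computed. Other steps used Python 3.11.15, numpy 2.4.6, pandas 2.3.3, scipy 1.17.1 and matplotlib 3.10.9. The pseudocount was 0.5 CPM, the minimum 50 counts in 1 library and the fold 2. Printed folds divide CPM by CPM with no pseudocount added, their 95% intervals are exact (Clopper-Pearson on the split of counts), and the floor for 0 counts was 3 counts. Reads carry no molecular identifiers here, so intervals and floors cover counting error only. The procedure was tested on simulated counts.

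The members, the 17 gene lists and the tests were chosen with earlier results of these data known. Named were, per complex, the 3 highest and 3 lowest members, every member past 2-fold, every isoform, every mtDNA member, and in each list the members past 2-fold or the 3 furthest from 0. Other names, such as neighbours, overlapping genes and some subunits, were chosen after their values were seen. Alternatives were other scalings, pseudocounts of 0.1 and 2, no minimum and a minimum of 200, a fold of 1.5, deposited TPM and centring in 10 bins of gene length. Centring by coding length, centring by transcript GC and a restriction to whole counts were added after seeing the data. The letters of the promoter motifs were set after values were seen. Coding length and GC came from GENCODE models on GRCm38, matched by identifier.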

Additional observations from a re-analysis of the deposited data

How the results depend on the processing

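Of the 11 members counted as 2-fold higher, the count was 7 under upper-quartile scaling, 6 under centring by gene length, 33 at a fold of 1.5, 1 under centring by coding length and 5 among members with whole counts only. The 2 counted as lower became 1 with total counts, a pseudocount of 2, a minimum of 200, deposited TPM or GC centring, 5 at a fold of 1.5 and 3 under centring by coding length. The median log2 fold of nuclear members, 0.37, was 0.25 under upper-quartile scaling, 0.14 under centring by gene length, 0.014 by coding length and 0.21 by GC. That of mtDNA members, 0.36, was 0.021 under centring by coding length and 0.78 among the 3 genes with whole counts. The centrings subtract the median of genes of like length or GC, and upper-quartile scaling moved the median of the whole table from 0.07 to −0.04; for the other alternatives the cause was not tested. No median of either group turned negative under the alternatives run. No paired analysis was possible because the groups held single libraries, and none could be left out. Depth limits the isoforms at a few counts, where 1 count is worth 0.0542 CPM in mock.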

Other observations

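Among genes that feed the chain or shape its membrane, those of the tricarboxylic acid cycle and the pyruvate dehydrogenase complex held few 2-fold differences. The list joined both, with Pdha1, Pdhb, Dlat and Pdhx from the latter. Of its 18 genes, 0 were higher (against 19.7% of the whole table) and 1 lower (5.56%, against 11.9%) in the transfectant. The median log2 fold was 0.11 and turned negative under upper-quartile scaling and centring by gene length. The lower one was Idh3b, a subunit of the NAD-dependent isocitrate dehydrogenase, at 289 CPM (mock) and 135 CPM (transfectant), 2.14-fold lower. Among 7 other electron donors to coenzyme Q, 2 were higher (28.6%, against 19.7%) and 0 lower (against 11.9%), and the median was 0.41. The 2 below 0 were Etfdh, at 87.8 and 44.1 CPM, 1.99-fold lower, and Dhodh, at 60.1 and 34.6 CPM, 1.74-fold lower. Sqor, which oxidises hydrogen sulphide, had 2.76 and 14.2 CPM, 5.13-fold higher (3.82 to 7.03), and Etfb, a carrier of electrons from fatty acid oxidation, had 55.2 and 135 CPM, 2.45-fold higher.

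Of 11 genes of cristae organisation, 2 were higher (18.2%), a share near the 19.7% of the whole table. The list's median log2 fold was 0.06, and its sign turned under 5 alternatives. Both higher genes are subunits of the MICOS complex, Apool at 14.3 and 38.6 CPM, 2.71-fold higher, and Apoo at 16.3 and 40.1 CPM, 2.47-fold higher. A list of 7 genes held uncoupling proteins, adenine nucleotide carriers and the phosphate carrier Slc25a3. Of these, 4 passed the minimum and 1 was higher (25%, against 19.7% of the whole table). It was Ucp2, at 42.2 and 165 CPM, 3.90-fold higher (3.62 to 4.22). The 17 processed pseudogenes whose names match the rule held 1916 counts in mock and 4059 counts in the transfectant, a ratio of 1.61 in CPM. Most of both sums came from Ndufa12-ps, at 911 and 1692 counts, and Ndufb4c, at 694 and 2002 counts, and others were lower in CPM, such as Atp5pb-ps at 69 and 48 counts.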
